A study of Homo sapiens with 5 samples.

Results

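Integrin subunits and laminin chains were examined in HEK293 cells, a human embryonic kidney line, that stably carry PRL-1 or the empty vector. The genes taken were those with a probe set of their own on the array whose symbol is an integrin subunit (ITGA or ITGB with a number or letter) or a laminin chain (LAMA, LAMB or LAMC). The binding proteins ITGB1BP and the integrin-like ITGBL were left out. The rule gave 35 of 19775 genes, 25 for integrins with 72 probe sets and 10 for laminins with 23, which is 95 of 54613 probe sets in all. ITGB6 lies only on probe sets with several gene symbols, and LAMA3 was not analysed here. RNA came from 2 cultures of HEK293-PRL-1 cells, which carry PRL-1 (PTP4A1) in pcDNA4, and from 3 cultures of HEK293-vector cells, which carry pcDNA4 without an insert. All were grown in DMEM with serum and antibiotics, and each culture was hybridized to its own HG-U133 Plus 2.0 array. A further PRL-1 array was left out by the authors because qRT-PCR did not show PRL-1 in that culture to differ from the controls. Each group is 1 stable line, so PRL-1 itself and whatever else sets the lines apart cannot be told apart. Whether a line is a clone or a pool was not stated.

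Integrins are receptors made of an alpha and a beta subunit that span the membrane and tie the extracellular matrix to the actin cytoskeleton. The pairing sets the ligand: αvβ5 binds vitronectin, α5β1 binds fibronectin, α1β1 and α2β1 bind collagens, and α3β1, α6β1, α7β1 and α6β4 bind laminins. Laminins are secreted trimers of an alpha, a beta and a gamma chain that polymerise into the basement membrane, the sheet on which epithelial cells rest. Talin and kindlin bind the cytoplasmic tail of the beta subunit and switch the receptor to its active state. PRL-1 is a small prenylated phosphatase studied for its part in cell migration and invasion.

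The signal is the MAS5 intensity of a probe set on a linear scale, and probe sets with a signal of 100 or more on at least 2 arrays entered the test. Array medians were 124.2 and 143.4 with PRL-1 and 135.4 to 165.9 with vector, the highest on vector replicate 3, whose log2 signals correlated with those of the other arrays at 0.938 to 0.947. None of the 4 tested probe sets of PTP4A1 passed the test, with log2 fold changes of 0.06 to 0.15. Its brightest gave 7913 and 7239 on the arrays labelled PRL-1, against 7463, 7533 and 6807 on the vector arrays. The paper states that earlier work on this line found more PRL-1 mRNA and protein than in the vector cells. It is not known here if the construct's transcript contains these probe sets, so PRL-1 below names the arrays labelled so. The lineage genes PAX2, NEFL, KRT8, KRT18, CDH2 and VIM were tested, and 3 of them had an unadjusted p under 0.05 without being called. By probe set this was 3 of 11 tested, or 27.3%, against 9.72% of all tested probe sets. KRT8, an epithelial keratin, gave 2141 and 2116 with PRL-1 against 998.8, 867.0 and 1583 with vector. VIM, a mesenchymal intermediate filament, gave 13481 and 13501 with PRL-1 against 16971, 18340 and 23975 with vector. The kidney factor PAX2 gave 232.7 and 218.1 with PRL-1 against 364.9, 307.6 and 488.3 with vector at 206228_at. At its other tested probe set, 206229_x_at, PAX2 overlapped between groups (log2 fold change -0.13, adjusted p = 0.889). The lineage gene NEFM stayed under 100 on every array and was not tested. Markers of other cells that use particular integrins were mostly under the filter: 1 of 14 leukocyte, 2 of 10 endothelial, 8 of 22 fibroblast, 2 of 4 platelet, 1 of 4 muscle and 0 of 2 keratinocyte probe sets were tested, and none was called. The part of these markers in the values below was not tested.

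The promoters of 4 subunits are shown, none of which had a probe set that passed the test. They were picked because αv and β5, which form a vitronectin receptor, each had 1 probe set with higher signals on both PRL-1 arrays. The subunits β1 and α8, which pair with each other, had lower signals at 4 of 4 and 1 of 3 tested probe sets. The other 3 probe sets of ITGB5 and the other 2 tested ones of ITGA8 overlapped between groups. Each run is the 250 bases before the annotated gene start in RefSeq (GRCh38.p14), 5′ to 3′ on the strand of the gene, and therefore 5′ flanking sequence outside the gene itself. They lie at chr3:124901419-124901668 (minus strand, ITGB5), chr2:186589806-186590055 (plus strand, ITGAV), chr10:32958231-32958480 (minus strand, ITGB1) and chr10:15719923-15720172 (minus strand, ITGA8). Capitals mark the GC box, GGGCGG or CCGCCC, the element that Sp1-family factors bind.

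ITGB5: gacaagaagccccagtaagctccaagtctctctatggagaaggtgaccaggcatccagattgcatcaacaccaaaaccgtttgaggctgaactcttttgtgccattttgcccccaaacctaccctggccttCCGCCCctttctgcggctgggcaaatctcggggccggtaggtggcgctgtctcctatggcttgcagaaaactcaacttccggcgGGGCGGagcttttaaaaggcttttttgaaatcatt
ITGAV: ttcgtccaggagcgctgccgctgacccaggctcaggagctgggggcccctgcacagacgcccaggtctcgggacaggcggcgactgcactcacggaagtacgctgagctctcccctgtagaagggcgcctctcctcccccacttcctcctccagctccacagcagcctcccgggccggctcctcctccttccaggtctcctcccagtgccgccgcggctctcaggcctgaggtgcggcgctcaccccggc
ITGB1: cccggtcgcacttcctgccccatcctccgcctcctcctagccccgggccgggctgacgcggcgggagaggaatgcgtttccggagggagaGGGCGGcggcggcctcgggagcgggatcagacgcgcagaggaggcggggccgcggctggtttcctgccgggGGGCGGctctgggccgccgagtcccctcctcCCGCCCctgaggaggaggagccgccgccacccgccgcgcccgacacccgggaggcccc
ITGA8: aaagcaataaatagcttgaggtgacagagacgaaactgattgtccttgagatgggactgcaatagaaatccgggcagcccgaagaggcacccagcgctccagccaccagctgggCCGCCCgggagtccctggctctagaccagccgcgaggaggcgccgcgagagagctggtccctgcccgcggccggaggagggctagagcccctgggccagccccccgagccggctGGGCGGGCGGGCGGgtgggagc

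The GC box occurred 2 times before ITGB5, 0 times before ITGAV, 3 times before ITGB1 and 4 times before ITGA8, where 3 of the matches overlap. None of the 4 windows held a TATA box (TATAAA or TTTATA), an AP-1 motif (TGANTCA) or the E-box CAGGTG or CACCTG. Of 35116 such promoter windows, 42.6% held the GC box, 10.7% the TATA box, 6.57% the AP-1 motif and 17.5% the E-box. GC content was 52.8% before ITGB5, 70.8% before ITGAV, 78.4% before ITGB1 and 68% before ITGA8, against a median of 58% over all windows. A window was matched for 21 of the 35 genes, and 11 of these held a GC box. A match describes letters and not a bound site.

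The comparison asks whether integrin and laminin transcripts differ between HEK293-PRL-1 and HEK293-vector cells. No integrin or laminin probe set passed the test. Of the 95 probe sets 49 were tested, for 26 of the 35 genes, and 0 were called at a limma adjusted p at or below 0.05 over all 33818 tested probe sets, where 0.192% were called. The adjusted p of the members ran from 0.157 to 1. An unadjusted p under 0.05 was seen for 5 members, 4 higher and 1 lower with PRL-1, which is 10.2% of the members against 9.72% of all tested probe sets. The median log2 fold change, PRL-1 minus vector, was -0.05 over the members and -0.04 over all tested probe sets, with 23 members above 0 and 26 below.

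Signals of both PRL-1 arrays lay on 1 side of all 3 vector arrays for 23 members, or 46.9%, against 28.9% of all tested probe sets. PRL-1 was above for 8 members and below for 15, where 12.8% of all tested probe sets were above and 16.1% below. Several probe sets share a gene, so these are not independent counts: 4 of the 15 belong to ITGB1. By role, the median log2 fold change was 0.03 over 24 alpha subunit probe sets, -0.14 over 13 beta subunit probe sets and -0.12 over 12 laminin probe sets. With the 4 probe sets whose PRL-1 signals were all under 100 set to their bound, these medians were 0.03, -0.13 and -0.12. The quartiles of the members were -0.35 and 0.17, against -0.24 and 0.15 over all tested probe sets. Of the members, 57.1% had a 95% interval that stayed within a doubling or halving, against 70.3% of all tested probe sets. For the rest the interval does not exclude a doubling or a halving.

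**Figure D1:**
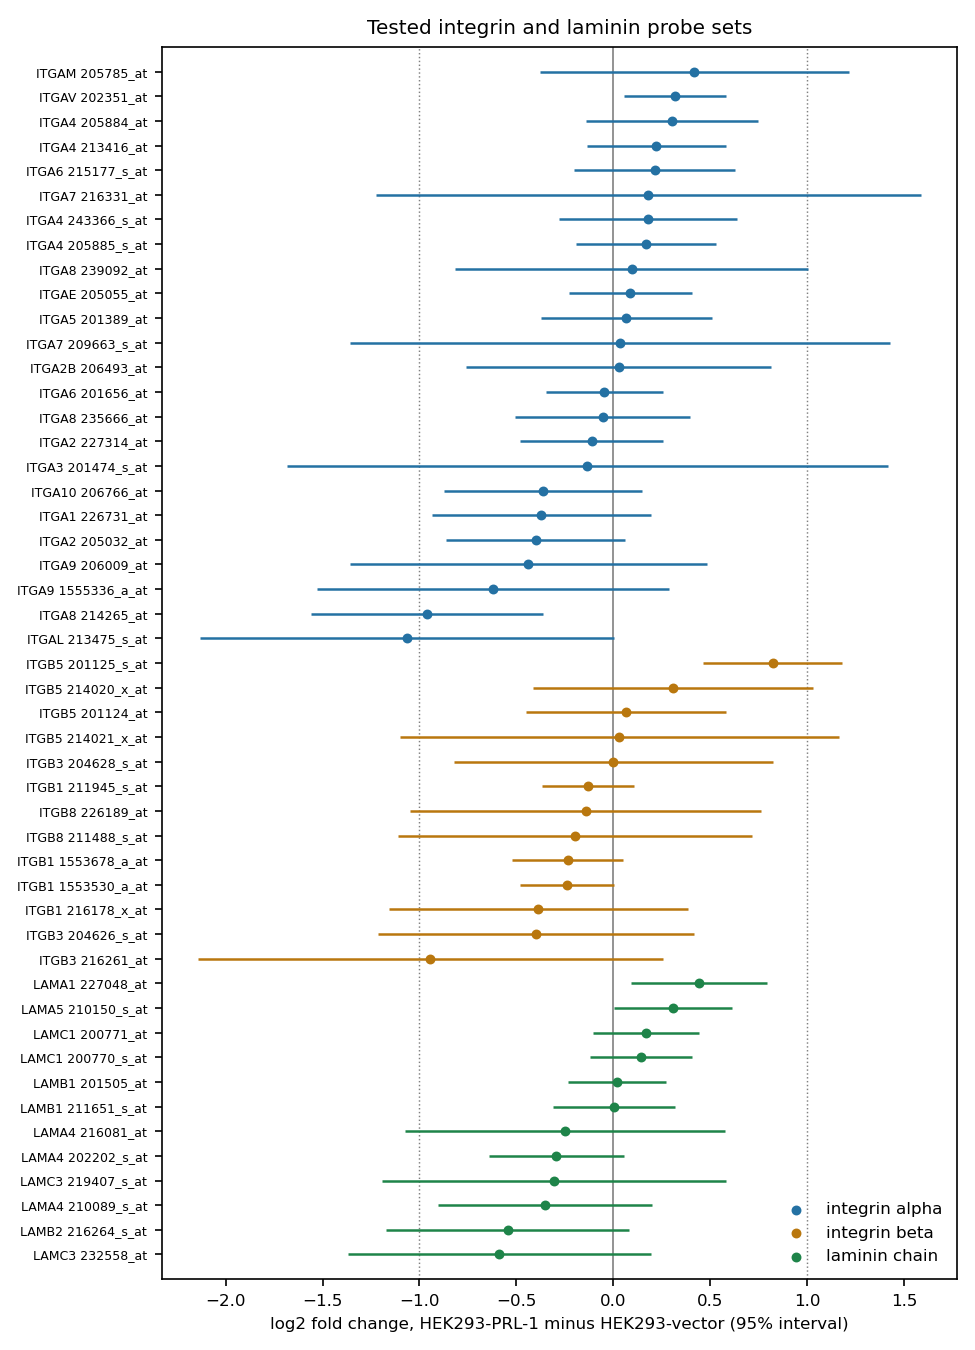
Log2 fold change of each of the 49 tested probe sets (points, PRL-1 minus vector) with its 95% limma interval (lines), ordered within alpha subunits, beta subunits and laminin chains; dotted lines mark a doubling and a halving. ITGB5 201125_s_at lies at 0.82 and ITGA8 214265_at at -0.96, and the dim probe sets of ITGA3 and ITGA7 have wide intervals. Points of ITGAL, ITGA9 and ITGB8 226189_at are fitted values with both PRL-1 signals under 100.

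The vitronectin receptor αvβ5 gave the highest member. ITGB5, the β5 subunit, had 811.0 and 790.1 on the PRL-1 arrays and 465.1, 506.2 and 394.3 on the vector arrays at probe set 201125_s_at. Both PRL-1 signals were above every vector signal, 801 ± 14.8 (SD, n = 2) against 455 ± 56.6 (SD, n = 3). The log2 fold change was 0.82 (1.77-fold, 95% interval 0.46 to 1.18, adjusted p = 0.157). It was called when vector replicate 3 was left out (log2 fold change 0.72, adjusted p = 0.0393), in a fit in which 0.926% of all probe sets were called, and with array weights (adjusted p = 0.0363), and over all 14 alternatives its adjusted p ran from 0.0363 to 0.884.

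The remaining probe sets of ITGB5 did not share this separation. Probe set 214020_x_at gave 550.4 and 618.9 with PRL-1 against 583.5, 634.1 and 282.0 with vector, and its log2 fold change of 0.31 (adjusted p = 0.791) was -0.06 without vector replicate 3. Probe set 201124_at gave 212.7 and 223.9 with PRL-1 against 186.2, 231.4 and 210.5 with vector. Their groups overlapped, as did those of 214021_x_at, which gave 72.7 and 103.2 with PRL-1 against 80.3, 103.4 and 73.2 with vector. The 4 probe sets thus disagree on the size of the difference, with log2 fold changes between 0.03 and 0.82.

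ITGAV, the αv subunit shared by several vitronectin and fibronectin receptors, gave 1708 and 1667 with PRL-1 against 1411, 1375 and 1276 with vector at its single probe set. The groups did not overlap, and the log2 fold change was 0.32 (1.25-fold, 95% interval 0.06 to 0.58, adjusted p = 0.426). Its interval excludes a doubling. Among the other beta partners of αv, ITGB3 and ITGB8 were dim. ITGB3, the β3 subunit of the platelet and vitronectin receptors, had 3 of 7 probe sets tested, and the lowest of them (216261_at) gave 111.2 and 40.1 with PRL-1 against 150.6, 111.9 and 126.1 with vector. That log2 fold change of -0.94 (adjusted p = 0.609) came to -0.21 without PRL-1 replicate 2, the array at 40.1. The other two ITGB3 probe sets overlapped between groups. ITGB8, whose product binds latent TGF-beta with αv, had 2 probe sets tested at signals between 87.1 and 122.3. The log2 fold change was -0.20 at 211488_s_at (adjusted p = 0.904). At 226189_at it gave 97.7 and 96 with PRL-1 against 101.1, 98.8 and 122.3 with vector (adjusted p = 0.935). With the PRL-1 level set to 100 the vector level was 1.07-fold above it, and the 95% interval of -1.05 to 0.76 covered both a decrease and an increase.

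**Figure D2:**
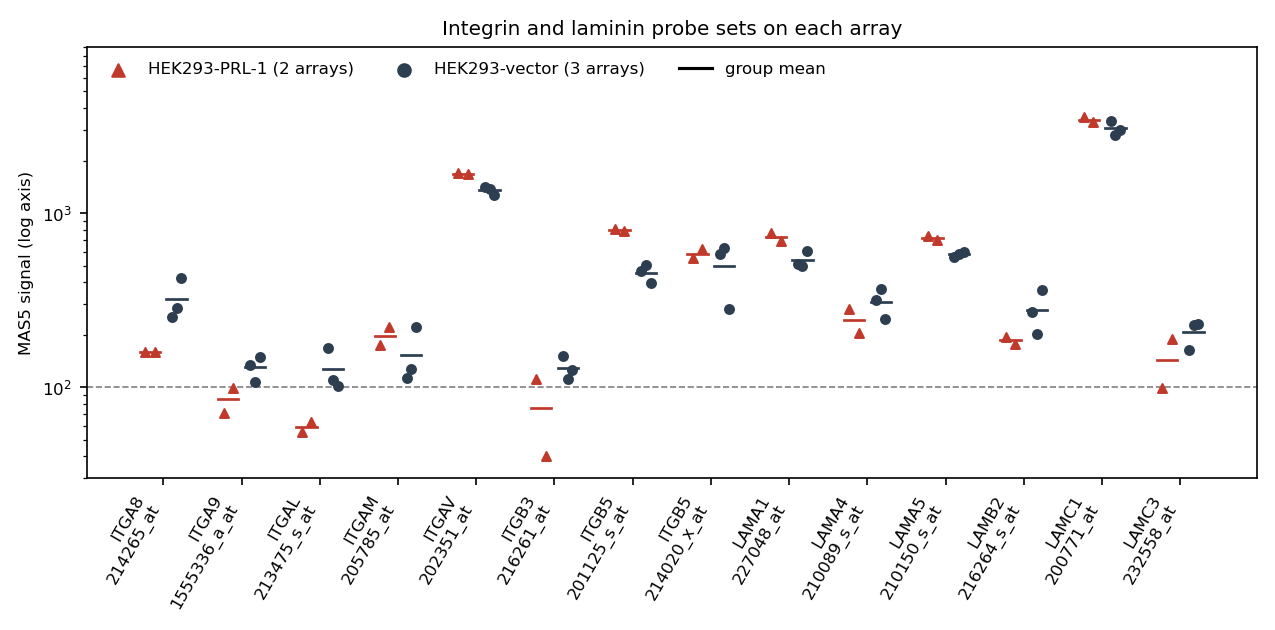
MAS5 signal (log axis) on each array for the 14 member probe sets picked by the naming rule, with PRL-1 arrays as triangles, vector arrays as circles, group means as bars and the signal of 100 as a dashed line. The 2 PRL-1 signals of ITGB5 201125_s_at (811.0 and 790.1) and ITGAV (1708 and 1667) lie above all vector signals, and those of ITGA8 214265_at (160.3 and 160.2) below.

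ITGB1, the β1 subunit that pairs with the largest group of alpha subunits, had lower signals on both PRL-1 arrays at each of its 4 tested probe sets, and none passed the test. The brightest, 211945_s_at, gave 11787 and 11419 with PRL-1 against 12216, 12928 and 12986 with vector, a log2 fold change of -0.13 (adjusted p = 0.723). Probe set 1553530_a_at gave 3084 and 2918 with PRL-1 against 3447, 3457 and 3708 with vector, a log2 fold change of -0.24 (95% interval -0.48 to 0.00, adjusted p = 0.52). The order of the groups was the same at all 4, and the differences were small, from 1.1-fold to 1.31-fold.

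The collagen-binding partners of β1 gave values under vector that did not pass the test. ITGA1 gave 151.9 and 187.4 with PRL-1 against 199.9, 206.9 and 251.1 with vector (log2 fold change -0.37, adjusted p = 0.675). ITGA2 gave log2 fold changes of -0.40 and -0.11 at its 2 tested probe sets, and the groups did not overlap at 205032_at (297.8 and 274.4 with PRL-1 against 347.0, 333.5 and 465.1 with vector). ITGA10, a subunit of cartilage collagen receptors, overlapped (log2 fold change -0.36), and ITGA11, its relative in fibroblasts, stayed under 100 on every array at all 3 probe sets.

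The fibronectin- and matrix-binding partners did not share a direction. ITGA4, the α4 subunit that binds fibronectin and VCAM1, had positive log2 fold changes at all 4 tested probe sets, between 0.17 and 0.30 (adjusted p from 0.663 to 0.813), and 2 of the 4 did not overlap, such as 205884_at with 369.5 and 348.3 with PRL-1 against 254.5, 283.4 and 340.4 with vector. ITGA5, the α5 subunit of the fibronectin receptor, gave 579.8 and 538.0 with PRL-1 against 451.3, 495.8 and 677.4 with vector, and its log2 fold change of 0.07 had an interval of -0.38 to 0.51. ITGA9, which binds tenascin and osteopontin, was under 100 on both PRL-1 arrays at 2 probe sets. At 1555336_a_at it gave 71.1 and 99.5 with PRL-1 against 135.0, 107.7 and 149.5 with vector (adjusted p = 0.661). With the PRL-1 level set to 100 the vector level was 1.3-fold above it. The fitted interval of -1.53 to 0.29 covered both a decrease and an increase.

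ITGA8, the α8 subunit that binds nephronectin in the developing kidney, held the only member that was lower with PRL-1 at an unadjusted p under 0.05. Probe set 214265_at gave 160.3 and 160.2 with PRL-1 against 252.4, 283.3 and 423.0 with vector. The groups did not overlap, and the log2 fold change was -0.96 (1.94-fold lower, 95% interval -1.56 to -0.36, unadjusted p = 0.00567, adjusted p = 0.294). Without vector replicate 3, the highest of the 5, the log2 fold change was -0.74. At 2 further tested probe sets ITGA8 overlapped between groups, with log2 fold changes of -0.05 (239.1 and 299.5 with PRL-1 against 273.9, 272.5 and 286.9 with vector) and 0.10, so its probe sets disagree.

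The laminin-binding alpha subunits did not separate the groups together. ITGA6, the α6 subunit, gave 1035 and 893.4 with PRL-1 against 1012, 927.6 and 1043 with vector at its brighter probe set, a log2 fold change of -0.05 with an interval of -0.35 to 0.26. Its second probe set gave 472.2 and 478.6 with PRL-1 against 338.8, 442.4 and 460.3 with vector, with no overlap and a log2 fold change of 0.21 (adjusted p = 0.744). ITGA3 and ITGA7 were near the filter and scattered widely within groups, as in 39.3 and 160.4 for ITGA3 on the PRL-1 arrays, against 112.2, 62.4 and 94.5 on the vector arrays. ITGB4, the β4 subunit that joins α6 in hemidesmosomes, had none of its 5 probe sets tested. Vector replicate 3 was the only array on which ITGB4 reached 100, at 3 probe sets with signals of 114.3, 118.2 and 150.8.

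Integrins of blood cells were dim or did not pass the test. ITGAL, the αL subunit of LFA-1, gave 55.4 and 63.1 with PRL-1 against 167.8, 110.2 and 102.2 with vector (adjusted p = 0.515). With the PRL-1 level set to 100 the vector level was 1.24-fold above it. The fitted interval of -2.13 to 0.01 did not exclude an absence of change. The groups did not overlap, and both PRL-1 signals were under 100. ITGAM, the αM subunit of Mac-1, gave 175.5 and 220.4 with PRL-1 against 113.0, 127.3 and 221.6 with vector, a log2 fold change of 0.42 (adjusted p = 0.739) with overlap. ITGB2, the beta subunit with which both αL and αM pair, stayed under 100 on every array at all 3 probe sets, as did ITGB7 and ITGAX, and ITGAD reached 100 on vector replicate 3 only. ITGA2B, the platelet αIIb subunit, gave a log2 fold change of 0.03.

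ITGAE, the αE subunit of the lymphocyte receptor for E-cadherin, gave 6548 and 6602 with PRL-1 against 6733, 6796 and 5177 with vector. The log2 fold change was 0.09 (95% interval -0.23 to 0.41, adjusted p = 0.873), and vector replicate 3 alone lay below both PRL-1 arrays. Its only known partner, ITGB7, did not exceed 27 on any array at its single probe set.

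Among laminin alpha chains the members with an unadjusted p under 0.05 were LAMA1 and LAMA5, both higher with PRL-1. LAMA1, the embryonic alpha chain of the first basement membranes, gave 767.5 and 690.6 with PRL-1 against 513.3, 493.7 and 606.0 with vector. The groups did not overlap, and the log2 fold change was 0.44 (1.36-fold, 95% interval 0.09 to 0.79, adjusted p = 0.416). LAMA5, the alpha chain of most adult epithelial basement membranes, gave 735.9 and 701.9 with PRL-1 against 562.4, 583.4 and 596.0 with vector. These groups did not overlap either, and the log2 fold change was 0.31 (1.24-fold, adjusted p = 0.509).

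LAMA4, the alpha chain of vessel and muscle laminins, had negative log2 fold changes at its 3 tested probe sets, from -0.35 to -0.25. At 202202_s_at it gave 481.7 and 554.2 with PRL-1 against 606.4, 597.9 and 700.6 with vector, without overlap (adjusted p = 0.58), and at 210089_s_at it gave 280.7 and 205.0 with PRL-1 against 316.9, 366.4 and 247.0 with vector, with overlap (adjusted p = 0.684). LAMA2, the alpha chain of muscle basement membrane, stayed under 100 on every array at its 4 probe sets.

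The shared beta and gamma chains were bright and close between groups. LAMB1, the β1 chain, gave 2349 and 2207 with PRL-1 against 2142, 2229 and 2382 with vector at 201505_at. Its log2 fold changes of 0.02 and 0.00 had intervals that stayed between -0.31 and 0.32. LAMC1, the γ1 chain present in most laminins, gave 3563 and 3332 with PRL-1 against 3402, 2817 and 3001 with vector at 200771_at, a log2 fold change of 0.17 (adjusted p = 0.692) with an upper bound of 0.44. A doubling or a halving lies outside the interval of every LAMB1 and LAMC1 probe set.

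The less widespread chains that were tested gave negative log2 fold changes, and none passed the test. LAMB2, the β2 chain of the kidney filter and the neuromuscular junction, gave 194.4 and 177.4 with PRL-1 against 270.3, 202.8 and 363.4 with vector, without overlap (log2 fold change -0.55, adjusted p = 0.566). LAMC3, the γ3 chain, gave 98.5 and 188.4 with PRL-1 against 163.5, 226.8 and 231.4 with vector at 232558_at, with overlap (log2 fold change -0.59, adjusted p = 0.626). Without PRL-1 replicate 1 that log2 fold change was -0.12. At 219407_s_at LAMC3 also overlapped between groups (log2 fold change -0.31, adjusted p = 0.837). LAMB3, the β3 chain of epidermal laminin, did not reach 100 on any array, and LAMB4 reached it on vector replicate 3 only.

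**Figure D3:**
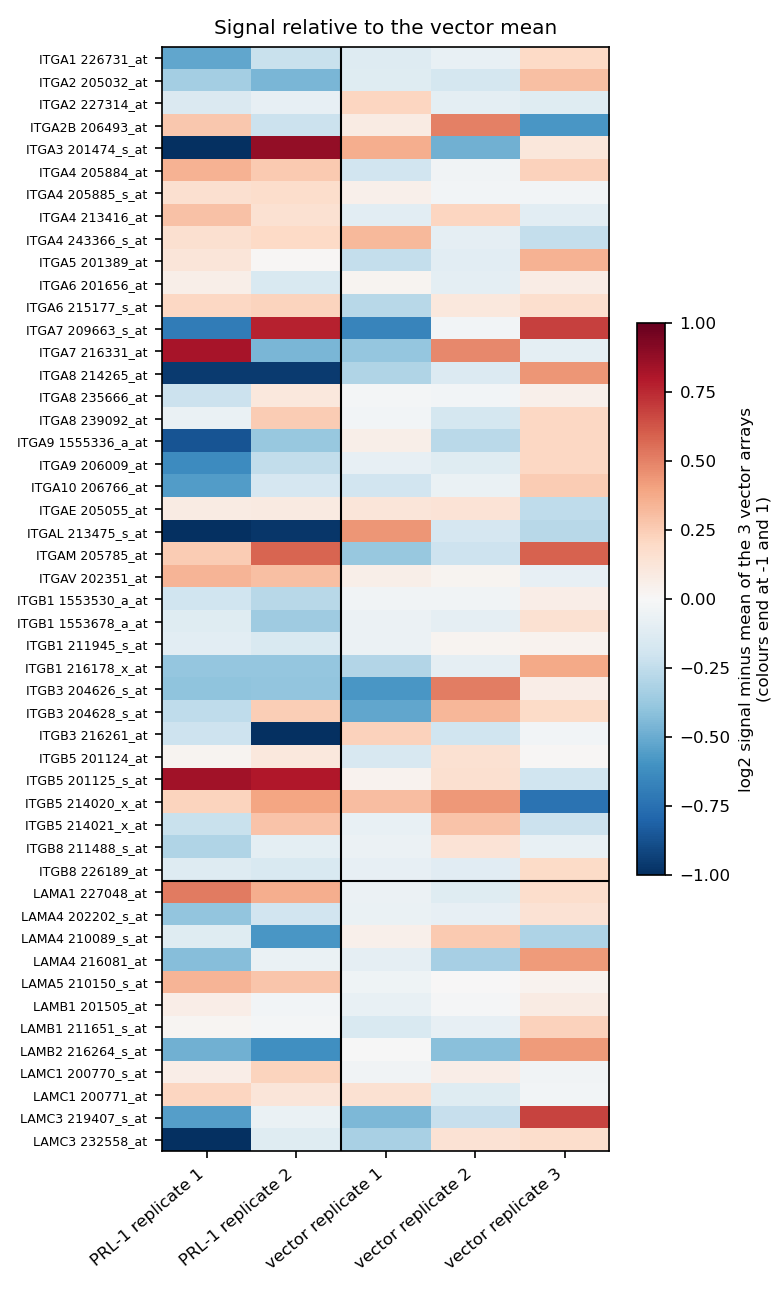
Log2 signal of each tested probe set (rows, integrins above the line and laminins below) on each array (columns, PRL-1 left of vector) minus the mean of the 3 vector arrays, with colours ending at -1 and 1. Rows such as ITGB5 201125_s_at and ITGA8 214265_at have 1 colour on both PRL-1 arrays, and vector replicate 3 is the highest array in 21 of the 49 rows.

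Vector replicate 3 stood apart among the members as well. It had the highest of the 5 signals for 21 of 49 tested members (42.9%) and for 38.5% of all tested probe sets. Of the 46 members that were not tested, 36 stayed under 100 on every array, and 9 of the 10 that reached it on a single array did so on vector replicate 3. Over all probe sets, the share at 100 or more was 54.7% to 58.6% on the other arrays and 62.4% on vector replicate 3. When this array was left out, 10 members had an unadjusted p under 0.05, or 20.4%, against 14.2% of all tested probe sets, with 6 higher and 4 lower. These were the 5 of the full fit and 1 probe set each of ITGB1, ITGA4, ITGAM, LAMA4 and ITGAL. The part of this array's other differences in these counts was not tested.

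With any 1 array left out, the log2 fold changes of ITGB5 201125_s_at, ITGAV, ITGA8 214265_at, LAMA1 and LAMA5 kept their sign. ITGB5 stayed between 0.72 and 0.90, ITGAV between 0.28 and 0.36, LAMA1 between 0.37 and 0.53, LAMA5 between 0.27 and 0.35 and ITGA8 between -1.11 and -0.74 over the alternatives. ITGB3 216261_at, LAMC3 232558_at and ITGB5 214020_x_at moved most, each with 1 array that lay apart from its group. Leaving out a PRL-1 array leaves a single one, which was then assumed to vary like the vector arrays.

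**Figure D4:**
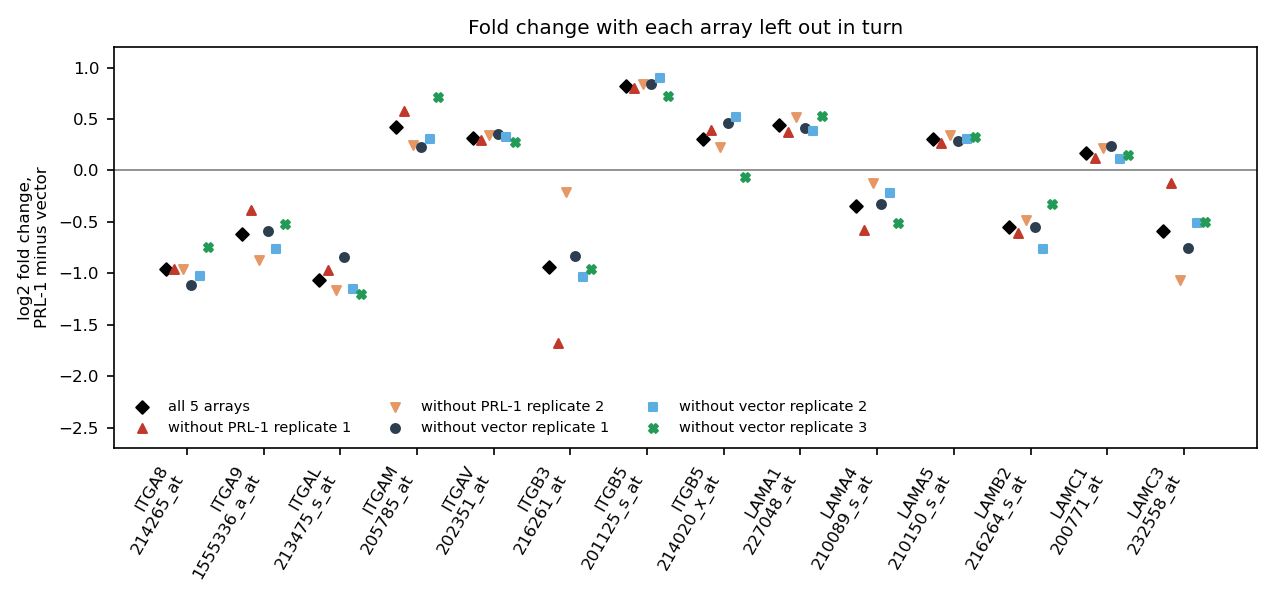
Log2 fold change (PRL-1 minus vector) of the 14 named probe sets over all 5 arrays (diamonds) and with each array left out in turn (other symbols). ITGB5 201125_s_at stays between 0.72 and 0.90, while ITGB3 216261_at is at -0.94 over all arrays and at -0.21 without PRL-1 replicate 2.

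The proteins that work with integrins and laminins were followed in 6 lists, with 223 probe sets for 86 genes, of which 154 probe sets were tested. None was called, and 16 had an unadjusted p under 0.05, 13 higher and 3 lower, or 10.4% of the 154, close to the 9.72% of all tested probe sets. Their median log2 fold change was 0.00.

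Among 23 tested probe sets of activators and inhibitors, 4 were higher at an unadjusted p under 0.05 and 0 lower. That was 17.4% of the list, against 9.72% of all tested probe sets. All 4 belong to kindlins, so they are not independent counts (median log2 fold change of the list 0.02). FERMT2, kindlin-2, gave 1511 and 1366 with PRL-1 against 1075, 1073 and 993.7 with vector at 209209_s_at, without overlap (log2 fold change 0.46, adjusted p = 0.288). FERMT1, the epithelial kindlin-1, gave 451.7 and 368.0 with PRL-1 against 328.9, 278.0 and 163.2 with vector at 218796_at (log2 fold change 0.73, adjusted p = 0.476). Both genes also had a tested probe set with overlapping groups and a negative log2 fold change, -0.11 for FERMT2 and -0.28 for FERMT1.

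In the ILK-PINCH-parvin complex, which links beta tails to actin, 0 of 15 tested probe sets had an unadjusted p under 0.05, and the median log2 fold change was -0.11. RSU1, a PINCH-binding protein, gave 2048 and 1860 with PRL-1 against 2390, 2333 and 2226 with vector at 201980_s_at (log2 fold change -0.25, adjusted p = 0.521), and its log2 fold change at 230490_x_at was 0.03. LIMS2, which is PINCH-2, and PARVB, β-parvin, gave log2 fold changes of -0.48 and -0.43 (adjusted p = 0.54 and 0.606), both without overlap, although the other 3 tested PARVB probe sets overlapped.

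Tetraspanins and other membrane partners had a median log2 fold change of 0.21 over 25 tested probe sets. At an unadjusted p under 0.05, 3 were higher and 0 lower, or 12% against 9.72% of all tested probe sets. All 3 belong to CD47, the integrin-associated protein. Its probe set 211075_s_at gave 3011 and 3045 with PRL-1 against 2394, 2505 and 1956 with vector, without overlap (log2 fold change 0.41, adjusted p = 0.375). Over the 6 tested CD47 probe sets the log2 fold change ran from -0.26 to 0.41.

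Other basement membrane components had 5 of 36 tested probe sets higher and 1 lower at an unadjusted p under 0.05, or 16.7% against 9.72% of all tested probe sets, with a list median of -0.06. AGRN, the laminin-binding proteoglycan agrin, gave 1260 and 1291 with PRL-1 against 853.4, 935.5 and 600.0 with vector at 217419_x_at (log2 fold change 0.70, adjusted p = 0.29), while its other tested probe sets gave 0.34 (adjusted p = 0.524) and -0.38. COL4A1, a type IV collagen chain, gave 1057 and 649.4 with PRL-1 against 437.5, 546.6 and 457.9 with vector at 211981_at (log2 fold change 0.79, adjusted p = 0.295) and a log2 fold change of 0.33 at 211980_at. The nidogens, which bridge laminin and type IV collagen, lay on opposite sides of vector. NID2 gave 569.1 and 560.3 with PRL-1 against 714.3, 701.7 and 1048 with vector (adjusted p = 0.444), and NID1 was above vector at 2 probe sets (log2 fold changes of 0.34 and 0.29, adjusted p = 0.45 and 0.502).

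Laminin receptors that are not integrins had 0 of 18 tested probe sets with an unadjusted p under 0.05. UTRN, the dystrophin relative utrophin, gave 191.5 and 175.9 with PRL-1 against 267.9, 260.0 and 231.8 with vector at 213023_at (log2 fold change -0.46, adjusted p = 0.531), but its brighter probe sets overlapped with log2 fold changes of 0.06 and -0.03. DMD, dystrophin itself, overlapped between groups with a log2 fold change of 0.26. BCAM, a receptor for laminins with the α5 chain, overlapped between groups at both tested probe sets, with 173.9 and 211.1 with PRL-1 against 210.1, 162.9 and 137.4 with vector at the brighter one (40093_at, log2 fold change 0.19).

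Other matrix ligands of integrins had 1 of 37 tested probe sets higher and 2 lower at an unadjusted p under 0.05. That was 8.11%, against 9.72% of all tested probe sets, with a list median of -0.09. The list held the partner with the smallest p. CCN2, a matricellular protein that binds integrins and is induced by TGF-beta and YAP, gave 133.1 and 101.0 with PRL-1 against 425.7, 352.9 and 244.3 with vector. The groups did not overlap, and the log2 fold change was -1.52 (2.87-fold lower, 95% interval -2.18 to -0.86, adjusted p = 0.152). CCN2 was called without vector replicate 3 and with array weights, and its adjusted p ran from 0.0111 to 0.719 over the alternatives. TNC, tenascin-C, a ligand of α9β1 and αvβ3, gave 360.0 and 456.6 with PRL-1 against 287.9, 292.1 and 251.8 with vector at 201645_at (log2 fold change 0.55, adjusted p = 0.418). At 216005_at TNC overlapped between groups (log2 fold change 0.44, adjusted p = 0.81). COL6A1, a type VI collagen chain, gave 53.2 and 91.9 with PRL-1 against 117.0, 157.9 and 161.0 with vector at 212940_at (adjusted p = 0.478). With the PRL-1 level set to 100 the vector level was 1.44-fold above it, and the fitted 95% interval was -2.01 to -0.07. At 212938_at all 3 vector signals of COL6A1 were under 100 (adjusted p = 0.671). With the vector level set to 100 the PRL-1 level was 1.27-fold above it. The fitted 95% interval of -0.45 to 2.28 covered both a decrease and an increase. The brightest COL6A1 probe set, 213428_s_at, gave 794.8 and 601.1 with PRL-1 against 678.2, 994.7 and 1082 with vector. There the groups overlapped (log2 fold change -0.38, adjusted p = 0.619), as they did at 212937_s_at and 212091_s_at. The probe sets of COL6A1 thus disagree.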

How the data were processed

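The deposited values are linear MAS5 intensity signals, which the authors made from HG-U133 Plus 2.0 arrays with the affy library under default parameters and scaled to a common trimmed mean (500 on all 5 arrays after trimming 2% at each end). MAS5 subtracts a mismatch estimate, which makes ratios of dim probe sets unstable. No genome build was stated for the array.

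Of 54675 probe sets, 62 control probe sets were left out, and the 33818 with a signal of at least 100 on at least 2 arrays were tested. Symbols came from the platform annotation, updated by gene identifier to the GRCh38.p14 RefSeq gene table, which gave 1 symbol to 41091 probe sets and several to 1801, while 11721 were not in the annotation used. The log2 signals went into limma 3.58.1 under R 4.3.3 (lmFit, eBayes with an intensity trend, group as the only term), two-sided, with Benjamini-Hochberg adjustment over all tested probe sets and a call at adjusted p at or below 0.05. Where every array of a group was under 100, its level was set to 100 and the fold given as a bound. This bound takes the mean of the other group as exact and leaves out the spread between arrays. Groups came from the labels, and no depth in reads applies to arrays, whose number limits the precision.

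Per the study's methods the replicates are independent cultures, so replicate numbers were not taken to pair them. Deviations from the group means correlated at 0.06 for the cultures numbered 1 and -0.06 for those numbered 2. The deviations of the 2 PRL-1 arrays mirror each other by construction, so these values are not separate and cannot decide on pairing. In 10 simulations of 33818 probe sets, each with 200 changed ones, limma found 0% of log2 changes of 0.5, 19% of 1, 53.6% of 2 and 76% of 4, with 2.37% of calls false.

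Signals on every array are given for members with an unadjusted p under 0.05, the 4 highest and 4 lowest integrin and 3 highest and 3 lowest laminin log2 fold changes, members called under an alternative and, for partners, up to 3 probe sets per list with the smallest adjusted p. Further members were described after their values were seen. The members and lists were chosen with earlier results of these data known. Alternatives were the filter, quantile normalization, a log offset of 32, a replicate block, centring on the median, no trend, array weights, each array left out and the methods' t-test. Promoter letters were searched on both strands.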

Additional observations from a re-analysis of the deposited data

How the results depend on the processing

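The count of integrin and laminin probe sets called was 0 over all 5 arrays and 1 with the replicate block and with array weights, and it ran from 0 to 1 with each array left out. That probe set was ITGB5 201125_s_at each time (log2 fold change 0.72 and adjusted p = 0.0395 with the replicate block, 0.74 with array weights). The partner count, also 0, was 1 with the replicate block and with array weights and ran from 0 to 1 with each array left out, CCN2 being the probe set called. In both cases the 1 came without vector replicate 3. The block uses replicate numbers that do not pair these cultures, and it leaves out vector replicate 3 in effect, since no PRL-1 culture shares its number. It changed no other call among members or partners.

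The median log2 fold change of integrin probe sets was -0.05, and -0.14 without the filter, 0.07 with the filter at 200, 0.05 with quantile normalization and -0.13 to -0.05 with each array left out. That of laminin probe sets was -0.12, and 0.00 without the filter, 0.01 with the filter at 200, 0.05 with the replicate block and -0.18 to 0.05 with each array left out. The signs of both medians thus follow the setting. Over all tested probe sets the count called was 65, against 448 with the replicate block, 275 with array weights, 9 without the trend, 0 with the methods' t-test (2905 at an unadjusted p under 0.05) and 11 to 313 with each array left out. Simulated log2 changes of 0.5 were recovered in 0% of cases. The simulations took the spread observed for each probe set as its true spread. They also pooled dim and bright probe sets and changed 200 of 33818 at a time, so the share found need not hold for the members. Why members were not called was not tested.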

Other observations

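Genes whose names resemble the members but which are not subunits were measured on the same arrays. ITGB8-AS1, an antisense RNA at the ITGB8 locus, gave 79 and 70.8 on the arrays labelled PRL-1 and 190.3, 172.3 and 157.6 on the vector arrays. The groups did not overlap (limma adjusted p = 0.301, fitted interval -1.97 to -0.44). With the PRL-1 level set to 100 the vector level of ITGB8-AS1 was 1.73-fold above it, a value chosen after it was seen. Its partner ITGB8 stayed between 87.1 and 122.3 at both tested probe sets. ITGB3BP, a centromere protein that can bind the β3 tail, gave 3751 and 3759 with PRL-1 against 4146, 4417 and 3791 with vector. ITGB1BP1, an inhibitor of integrin activation, gave 1690 and 1593 with PRL-1 against 1601, 1531 and 1517 with vector at its brightest probe set.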
